A study of Drosophila melanogaster with 4 samples.

Results

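Broad domains of HP1b on the long chromosome arms were chosen by their measured width, as the enriched clusters of at least 4000 bp in the authors' combined set, on all sequences but chromosome 4, the unplaced sequence and the heterochromatic scaffolds. They numbered 819, of 7378 combined clusters on the long arms and 8426 in the whole series. The material was whole third-instar larvae of Drosophila melanogaster, strain Oregon-R, wild type and with no treatment named. The samples were 2 libraries of chromatin precipitated with an HP1b antibody and 2 Input libraries, and the clusters described are those of the ChIP libraries and of their combination. Separate larval collections are not stated for the libraries, and any spread between these libraries may thus be technical only. In whole larvae, binding in few cells and weaker binding in many cells cannot be told apart.

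HP1b is a member of the HP1 family, small chromatin proteins with a chromodomain, which in HP1a binds methylated histone H3, and a chromoshadow domain, through which these proteins pair. HP1a is known for the heterochromatin around centromeres, where it coats long continuous stretches. HP1b is found in both heterochromatin and euchromatin of fly cells. The sequences of the long arms are mainly euchromatic, but at their proximal (centromere-facing) ends they run into the heterochromatin beside the centromeres.

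The rule took 11.1% of the long-arm clusters by their width, and they held 24.7% of the clustered bases (4.63 of 18.8 Mb). Most were only a little wider than the threshold. Their median width was 5067 bp, the middle 50% of them lay between 4414 and 6140 bp, and the widest measured 17495 bp. Of the 819, 596 were under 6 kb, 188 were from 6 kb to under 10 kb and 35 were 10 kb or more, and the same bounds in kb name the width classes used here. The narrower clusters had a median of 2091 bp. The 5 regions just above it measured 4001 to 4007 bp and had combined scores from 0.617 to 1.79, and the 5 just below measured 3991 to 3997 bp and had combined scores from 0.312 to 1.94.

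Broad clusters were densest at the proximal ends of 2R and 2L and, over whole arms, on X. Per Mb of arm, the combined set had 10.1 broad clusters on X, 7.61 on 2R, 6.26 on 2L, 5.99 on 3L and 5.02 on 3R. Clusters of at least 4000 bp were also counted in each library's own list, where there were 365 in replicate 1 and 640 in replicate 2. The arms stood in the same order there, with 4.73 per Mb on X and 2.19 on 3R in replicate 1, and 8.52 and 4.05 in replicate 2. Neighbours in that order lay close together, with 2R and 2L at 3.26 and 3.17 in replicate 1 and at 5.49 and 5.17 in replicate 2.

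Broad clusters were 1.65 times as dense on X as on the autosomal arms in the combined set. In the replicates' own lists the ratios were 1.76 and 1.83, which average 1.80 ± 0.0491 (SD, n = 2). For narrower clusters it was 1.11 in the combined set. Broad clusters were 14.4% of all clusters on X, against 10.2% on the autosomal arms. Away from the proximal 2 Mb of each arm the autosomal arms were nearly alike, at 4.98 (3R) to 5.68 (3L) broad clusters per Mb, and X had 10.6. The ratio there was 1.96 in the combined set, and 2.04 and 1.98 in the replicates' own lists. X held 227 broad clusters, of which 10 lay in its proximal 2 Mb.

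At the proximal ends, the arms differed. A region's midpoint lay in the proximal 2 Mb for 14.8% of broad clusters (121 of 819) against a background of 10.8% over all long-arm clusters. Of those 121, 54 were on 2R, 27 on 2L, 19 on 3L, 11 on 3R and 10 on X. The density in the proximal 2 Mb of 2R was 27.0 per Mb, 4.83 times that of the rest of the arm, and the corresponding ratio for narrower clusters on 2R was 1.42. The ratio of broad clusters was 2.42 on 2L, 1.67 on 3L, 1.10 on 3R and 0.471 on X. Narrower clusters had 1.64, 1.53, 1.20 and 0.569 on these arms. On 3L, 3R and X the broad ratio was thus near that of narrower clusters. In the replicates' own lists the ratio on 2R was 5.79 and 2.37, and that on 2L was 3.19 and 2.00, so both libraries had more broad clusters at these ends. On 3L the libraries went opposite ways (1.35 and 0.587), on 3R both were below 1 (0.439 and 0.475) and on X both were below 1 (0.834 and 0.505).

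**Figure D1:**
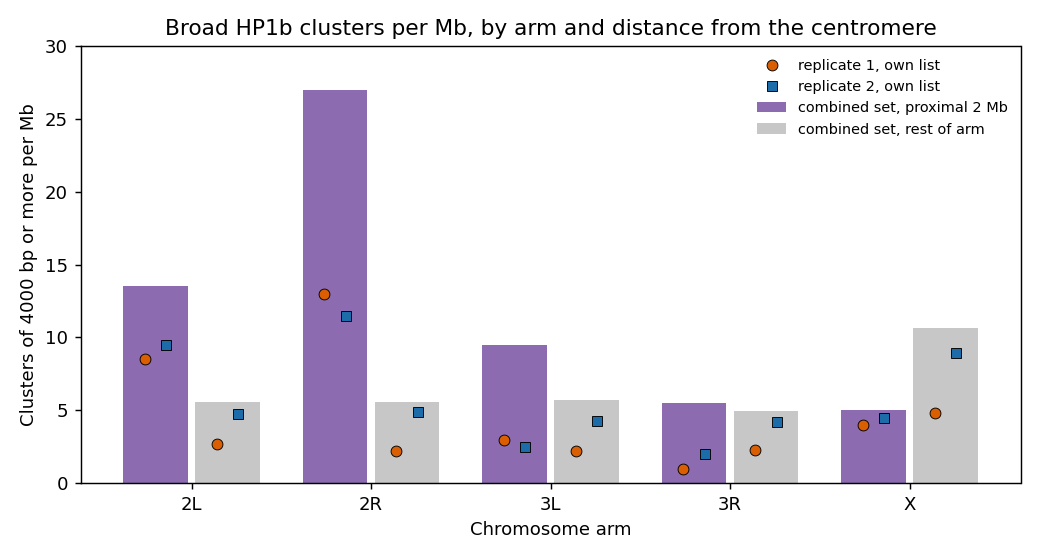
Clusters of at least 4000 bp per Mb (vertical axis) on the proximal 2 Mb and on the rest of each long arm (horizontal axis); bars give the combined set, circles and squares the own lists of replicates 1 and 2, with no error bar since each symbol is 1 list. The proximal end of 2R stands highest at 27.0 per Mb, and X has its broad clusters away from that end, at 10.6 per Mb.

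Over the 5 arms together the proximal ratio of the combined set was 1.89. The replicates' own lists gave 2.10 and 1.13, which average 1.62 ± 0.689 (SD, n = 2). The excess over 1 was less than the spread between the libraries. Arm 2R carried much of it. Without 2R the ratio was 1.27 for the combined set, and 1.41 and 0.854 for replicates 1 and 2. Narrower clusters of the combined set had 1.26 over the 5 arms and 1.21 without 2R. Without 2R the broad ratio was thus near theirs. On 2R the excess ended sharply. The combined set held 32 broad clusters in the first Mb from the proximal end and 22 in the second, but 4.50 per Mb from 2 to 4 Mb and 7.00 per Mb from 4 to 8 Mb. On 2L there were 19 and 8 in the first and second Mb, and 7.50 per Mb from 2 to 4 Mb. X went the other way, with 3 and 7 in the first and second Mb, 9.50 per Mb from 2 to 4 Mb, 10.5 from 4 to 8 Mb and 13.4 from 8 to 16 Mb, then 7.63 beyond 16 Mb. Over these 6 steps on X, the own list of replicate 1 had 3.00, 5.00, 5.00, 4.50, 5.88 and 3.58 per Mb and that of replicate 2 had 2.00, 7.00, 8.00, 8.00, 11.2 and 6.85. In both, the first Mb was lowest and the step from 8 to 16 Mb highest.

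Broad clusters were spread over all the arms all the same. Each of the 117 full windows of 1 Mb held at least 1 of them, with a median of 6 and a maximum of 32. The 10 fullest windows held 22.1% of the broad clusters. Of these windows 6 lay on X. The fullest on X, from 6000001 to 7000000 and from 11000001 to 12000000, held 19 each, with 11 and 6 in the own list of replicate 1 and 18 and 16 in that of replicate 2.

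The widest class was the most often proximal. The share in the proximal 2 Mb was 10.9% at 4 to 6 kb (n = 596), 20.2% at 6 to 10 kb (n = 188) and 51.4% at 10 kb or more (18 of 35). Most of those 18 lay on 2R and 2L, so the last share does not describe each arm. Below the threshold it was 9.49% at 3 to 4 kb, 6.49% at 2 to 3 kb and 14.6% at 1 to 2 kb, so the narrowest clusters were also more often proximal than those of middle width. The share on X was larger in wider classes up to 10 kb, at 19.9%, 20.2% and 23.7% in the narrower classes and then 27.5% and 29.8%. At 10 kb or more it was 20.0% (7 of 35).

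Both libraries had a cluster in nearly all broad regions. At least 1 cluster of each replicate touched 97.6% of them (799 of 819), against a background of 56.1% over all long-arm clusters. Width alone makes a touch more likely, and the combined set was built from these libraries, so the share is a description. By class it was 8.11% at 1 to 2 kb, 80.7% at 2 to 3 kb, 89.0% at 3 to 4 kb, 97.1% at 4 to 6 kb, 98.4% at 6 to 10 kb and 35 of 35 at 10 kb or more. The narrowest class holds clusters below 1301 bp, the smallest width in either replicate. Replicate 1 alone touched 12 broad clusters, replicate 2 alone touched 8, and 0 were touched by neither.

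Replicate clusters covered 77.7% of the bases of a broad cluster on average in replicate 1 and 89.3% in replicate 2, which average 83.5% ± 8.20 (SD, n = 2). The medians were 83.8% and 97.6%. The next narrower class, 3 to 4 kb, had means of 71.8% and 88.1%. The spread between libraries in that class was 11.6 percentage points (SD, n = 2). Within each library broad clusters were covered more, by 5.91 percentage points in replicate 1 and 1.17 in replicate 2. The spread between libraries does not measure that of these differences, which were unlike in size. All narrower clusters together had 48.6% and 71.8%. At least 50% of the region was covered by each library for 86.4% of broad clusters, 82.5% of clusters of 3 to 4 kb and 49.9% of all narrower ones.

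**Figure D2:**
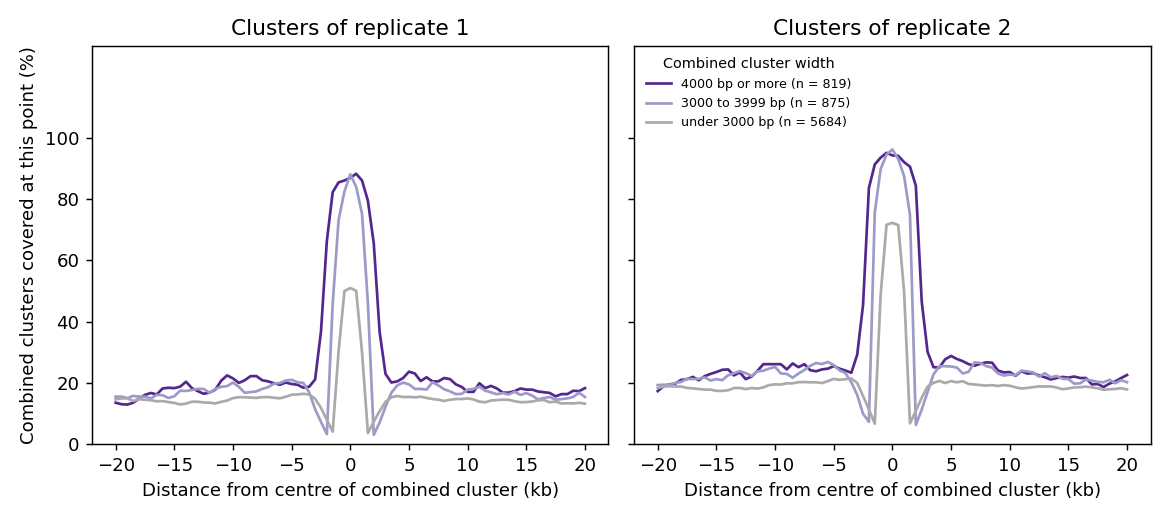
Percentage of combined clusters covered by a replicate cluster (vertical axis) against the distance in kb from the centre of the combined cluster (horizontal axis), for replicate 1 and replicate 2 and for 3 width groups. At the centre 86.9% of broad clusters were covered in replicate 1 and 94.3% in replicate 2. At 10 kb to the left and to the right, 21.5% and 17.1% were covered in replicate 1, and 26.1% and 23.6% in replicate 2.

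The cover differed between the libraries by place. Away from the proximal ends, replicate 2 covered 92.5% of a broad cluster on average and replicate 1 covered 78.1%, and 593 of 698 regions were covered more by replicate 2. In the proximal 2 Mb of 2R the averages were 63.7% in replicate 2 and 74.7% in replicate 1, and 33 of 54 were covered more by replicate 1. In the proximal 2 Mb of 3L they were 62.4% and 70.4% (n = 19), although 9 were covered more by replicate 1 and 10 by replicate 2, and on 2L they were 77.3% and 75.5% (n = 27). On 3R and X, replicate 2 had the larger cover at these ends too, at 83.6% against 76.6% (n = 11) and at 91.0% against 84.2% (n = 10). Narrower clusters also differed by place. At the proximal end of 2R, replicate 1 covered 24.8% of them on average and replicate 2 covered 22.5%, and away from the proximal ends 50.5% and 75.8%, in the same directions as the broad ones. Of the 12 broad clusters that replicate 2 lacked, 10 were in the proximal 2 Mb, 6 of them on 2R. Of the 8 that replicate 1 lacked, 7 lay elsewhere. The widest of the 12 was on 3L at 23078300 to 23086954 (8655 bp), where 2 clusters of replicate 1 covered 54.3%. Read depth of the libraries is unknown, and its part in these differences was not tested.

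**Figure D3:**
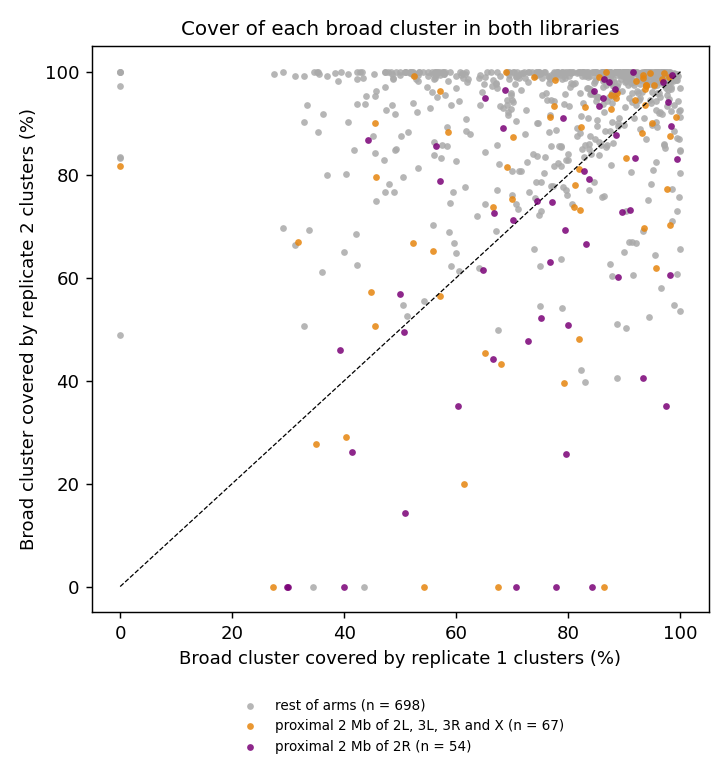
Percentage of each broad cluster covered by clusters of replicate 1 (horizontal axis) and of replicate 2 (vertical axis), 1 point per region, coloured by place; the dashed line marks equal cover. Most regions away from the proximal ends lie above the line (593 of 698), while 33 of 54 in the proximal 2 Mb of 2R lie below it.

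Many broad clusters were not 1 continuous stretch in a single library. In replicate 1, 602 were touched by 1 cluster, 193 by 2 and 16 by 3 or more. In replicate 2 the counts were 676, 121 and 10. The share in 2 or more pieces was larger in wider classes. It was 1.60% at 3 to 4 kb, 16.4% at 4 to 6 kb, 46.8% at 6 to 10 kb and 65.7% at 10 kb or more in replicate 1, and 1.49%, 10.6%, 26.1% and 54.3% in replicate 2. Wider regions have more room for a break, and the rule's width bears on this course. By arm, 2L had the smallest share in 2 or more pieces in replicate 1 (20.8%) and 3R the largest (30.0%); in replicate 2 the arms lay between 15.0% (3L) and 17.9% (3R).

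**Figure D4:**
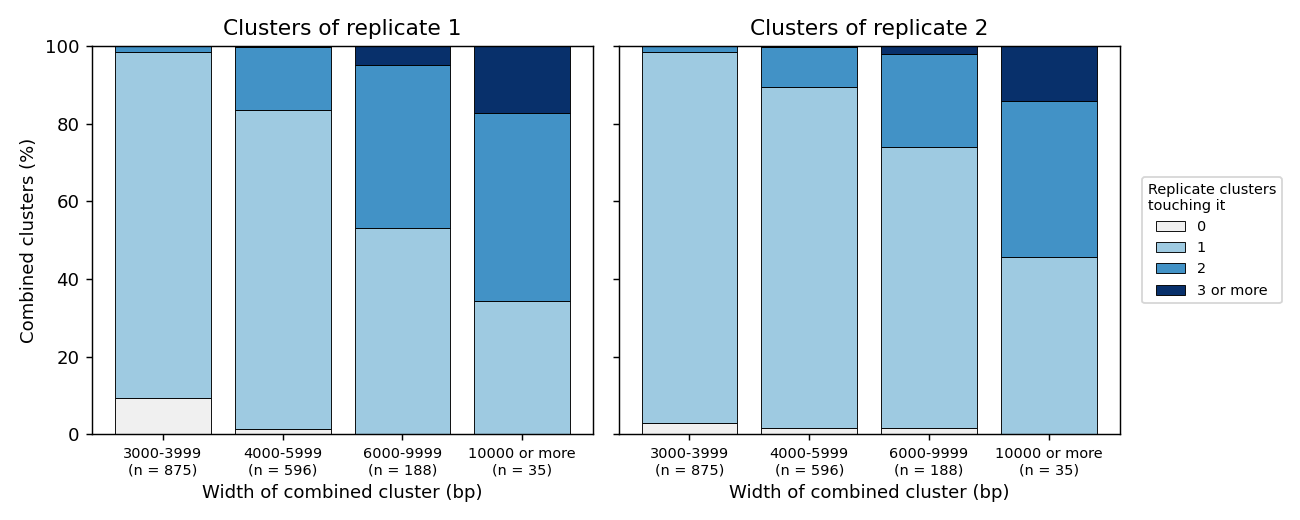
Share of combined clusters (vertical axis, percent) touched by 0, 1, 2 or 3 or more clusters of replicate 1 and of replicate 2, by width of the combined cluster (horizontal axis). At 10 kb or more, 65.7% were in 2 or more pieces in replicate 1 and 54.3% in replicate 2.

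A single cluster held at least 80% of the region for 41.8% of broad clusters in replicate 1 and 70.2% in replicate 2. The background over all long-arm clusters was 42.2% and 69.8%, and shares this near the background are no result about broad clusters. That background mixes widths, with 13.8% and 43.3% at 1 to 2 kb and 67.3% and 92.5% at 2 to 3 kb. At 3 to 4 kb the shares were 49.7% and 78.6%. They were lower in each wider class, at 46.0% and 75.3% for 4 to 6 kb and 31.4% and 58.5% for 6 to 10 kb. At 10 kb or more they were 25.7% and 45.7%, and the rule's width bears on this course too. Both libraries met the criterion for 291 broad clusters (35.5%), replicate 2 alone for 284, replicate 1 alone for 51 and neither for 193 (23.6%). In the proximal 2 Mb the shares were 36.4% in replicate 1 and 37.2% in replicate 2, against 42.7% and 75.9% on the rest of the arms. Narrower clusters had 26.1% and 32.9% in the proximal 2 Mb, and 44.1% and 74.0% elsewhere. A cluster that was itself at least 4000 bp wide in both libraries touched 313 broad regions, and 175 had none in either, so that they reached this width in the combined set only.

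The breaks were mostly short, and the other library often covered them, though less than it covered broad regions on average. Replicate 1 had 226 gaps between its clusters inside broad regions, with a median of 342 bp, and 184 were under 1000 bp. Replicate 2 had 142, with a median of 246 bp, and 124 were under 1000 bp. Clusters of replicate 2 covered 76.9% of the bases in replicate 1 gaps and filled 153 of the 226 completely. Clusters of replicate 1 covered 64.9% of the bases in replicate 2 gaps and filled 65 of the 142. The average cover of a broad cluster was higher, at 89.3% in replicate 2 and 77.7% in replicate 1. Of the 74 broad clusters that were broken in both libraries, 45 (60.8%) had a break at overlapping positions. The share to be met with breaks placed at random was not worked out.

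Outer edges mostly fell within 500 bp of each other. Between the first and last cluster bases of the 2 libraries, the 1598 edges of the 799 regions that both touched differed by a median of 190 bp, and 69.3% lay within 500 bp of each other. Against the edge of the combined region, the edge of replicate 2 lay within 500 bp in 84.6% of cases and that of replicate 1 in 68.5%. Replicate 1 edges lay at or inside the combined edge in 91.7% of cases and replicate 2 edges in 62.0%. Bridging of neighbouring regions was rare, with 1 cluster of replicate 1 and 2 of replicate 2 touching 2 or more broad regions. Of the clusters of at least 4000 bp in the replicates' own lists, 5 of 365 and 38 of 640 touched no broad combined cluster, and all 43 touched a narrower one.

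Scores were higher in broad than in narrower clusters, and they followed width only weakly beyond the threshold. The median combined score, the authors' value taken here as log2, was 1.11 for broad clusters and 0.453 for narrower ones. The cluster of replicate 1 that overlapped a broad region most had a median score at percentile 71.4 of that library's long-arm clusters, and in replicate 2 it was percentile 74.7. These average 73.1 ± 2.37 (SD, n = 2). For narrower clusters the mean was 45.9 ± 0.661 (SD, n = 2), and at 3 to 4 kb it was 64.5 ± 3.35 (SD, n = 2). The score comes from the same enrichment as the width, so this describes the regions only. Width and combined score had a Spearman rho of 0.67 across the 6559 narrower clusters and 0.12 across the 819 broad ones, which share libraries and are not independent. Among broad clusters it was 0.18 outside the proximal 2 Mb (n = 698) and 0.11 inside it (n = 121). Narrower and broad clusters span unlike ranges of width. Between libraries, the scores of the best-overlapping clusters had a rho of 0.88 over 799 broad regions, while their widths had a rho of 0.44.

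Scores differed by place. The median combined score was 0.549 for the 54 broad clusters in the proximal 2 Mb of 2R, 0.948 for the other 67 proximal ones, 1.11 on the rest of the autosomal arms (n = 481) and 1.23 on the rest of X (n = 217). In replicate 1 the corresponding median percentiles were 50.6, 68.0, 70.8 and 76.2, and in replicate 2 they were 50.7, 71.0, 74.3 and 78.3. Both libraries gave the same order. Narrower clusters in the proximal 2 Mb of 2R scored lower still, at percentiles 36.6 and 32.3.

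**Figure D5:**
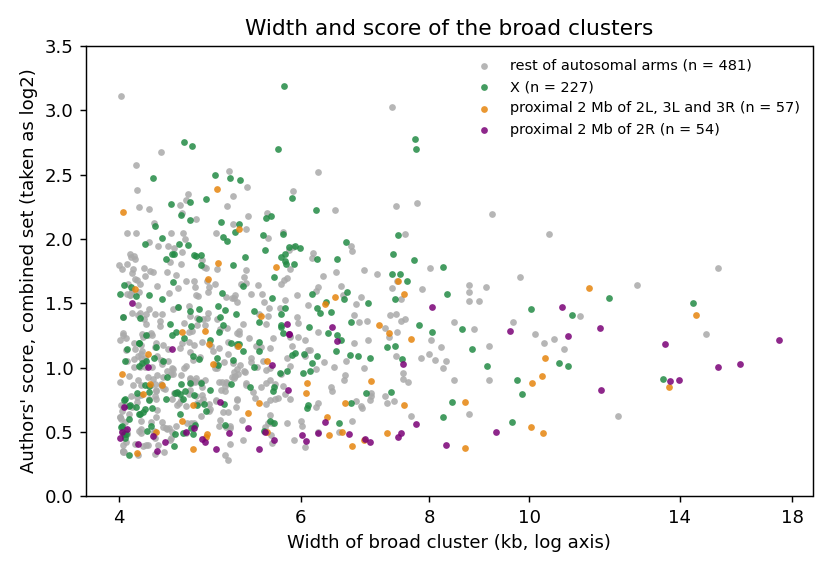
Authors' score in the combined set, taken as log2 (vertical axis), against width in kb (horizontal log axis) for the 819 broad clusters, 1 point each, coloured by place. The 3 widest clusters lie in the proximal 2 Mb of 2R at scores from 1.01 to 1.22, and the 54 regions there have a median of 0.549 against 1.23 on the rest of X.

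Broad clusters stood nearer to each other than narrower clusters stood to them. Another broad cluster lay within 10 kb for 30.8% of broad clusters, against a background of 22.8% over all long-arm clusters and 21.8% of narrower ones. The median distance to the nearest broad cluster was 22495 bp from a broad cluster and 38795 bp from a narrower one. The share was larger for broad than for narrower clusters in each of 4 places. On the rest of the autosomal arms the shares were 22.7% and 17.2%, on the rest of X 39.2% and 31.8%, in the proximal 2 Mb of 2R 68.5% and 48.8%, and in the proximal 2 Mb of the other arms 31.3% and 28.5%. By class the share was 20.1% at 1 to 2 kb, 26.9% at 3 to 4 kb, 27.2% at 4 to 6 kb and 45.7% at 10 kb or more, with little difference across the threshold itself. In the replicates' own lists, another cluster of at least 4000 bp lay within 10 kb of 20.3% and 23.3% of such clusters (replicates 1 and 2), and of 11.5% and 18.2% of narrower ones.

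Sequence beside broad clusters was also bound more often than that beside all narrower clusters together. Replicate clusters filled 18.4% of the 10 kb on either side in replicate 1 and 23.1% in replicate 2, averaging 20.7% ± 3.28 (SD, n = 2). Beside narrower clusters it was 14.1% and 18.9%, averaging 16.5% ± 3.36 (SD, n = 2). The difference was 4.28 percentage points in replicate 1 and 4.17 in replicate 2. Beside clusters of 3 to 4 kb it was 16.8% and 22.2%, which is less than beside broad ones by 1.61 and 0.822 percentage points. Both differences were small beside those of 4.28 and 4.17 against all narrower clusters. The spread between libraries in that class was 3.84 percentage points (SD, n = 2). It does not measure the spread of differences taken within a library. The flanks include any part of a replicate cluster that ran past the region's own edge. The nearest cluster of any width was a median of 1743 bp away from a broad cluster and 2359 bp from a narrower one.

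Joined at gaps of at most 10 kb, 252 broad clusters formed 108 chains of 2 or more, and 567 stood alone. Most chains were pairs, 85 of the 108. The 2 longest lay at the proximal end of 2R. The longest held 8 broad clusters over 87.0 kb at 963548 to 1050504, of 4009 to 15243 bp each, with replicate 1 clusters over 57.3% of the span and replicate 2 clusters over 44.1%. The next held 6 over 69.4 kb at 1137400 to 1206816, with 51.9% and 51.2% of the span covered. The combined scores in these chains ran from 0.364 to 1.31 and from 0.409 to 1.22. The third chain lay inside 3R at 12030180 to 12082872 and held 5 broad clusters over 52.7 kb. Clusters of replicates 1 and 2 covered 58.6% and 68.4% of its span. Its combined scores ran from 1.14 to 2.68, and it included the highest-scoring broad cluster of that arm.

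On 2R, each library covered at least 84.6% of each of the 4 widest broad clusters, in 1 or 2 clusters. The widest of all, at 1137400 to 1154894 (17495 bp), was covered to 87.3% by 2 clusters of replicate 1 and to 98.0% by 1 of replicate 2. That at 1216882 to 1232902 (16021 bp) was covered to 86.1% and 94.9%, by 2 clusters in each. That at 1008782 to 1024024 (15243 bp) was covered to 84.6% by 1 cluster and to 96.3% by 2. These 3 lay in the proximal 2 Mb and had combined scores from 1.01 to 1.22. The fourth, in the arm at 17587302 to 17602536 (15235 bp), scored 1.78, and replicate 2 spanned it with 1 cluster of 15327 bp where replicate 1 had 2.

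On 2L and 3L the widest domains included proximal ones in several pieces. On 2L the widest lay at 22959714 to 22974232 (14519 bp), and 1 cluster in each library covered 93.4% and 98.7% of it. At 22680862 to 22694536 (13675 bp), replicate 1 had 3 clusters and replicate 2 had 4, with 80.9% and 73.7% covered. The other 2, at 864694 to 875272 (10579 bp) and 7417670 to 7428110 (10441 bp), were covered to at least 95.1% by both. On 3L the widest, at 3243952 to 3255160 (11209 bp), was 1 cluster in each library and covered to 80.8% and 97.7%. Among the 20 regions made up of the 4 widest of each arm, the 2 proximal ones of 3L were the least covered in each library. At 23678032 to 23688340 (10309 bp) the cover was 65.1% and 45.3%, and at 23296662 to 23306696 (10035 bp) it was 40.3% and 29.1%, with combined scores of 0.490 and 0.536. The remaining one, near the distal end of 3L at 222234 to 232362 (10129 bp), was covered to 98.9% in replicate 1 and 54.7% in replicate 2.

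On 3R, 3 of the 4 widest were in 2 or more clusters in both libraries. That at 23741212 to 23756046 (14835 bp) consisted of 4 clusters in replicate 1 and 3 in replicate 2, and was still covered to 88.7% and 96.2%. At the proximal end, that at 218884 to 230306 (11423 bp) had 3 clusters in each library, with 88.5% and 94.9% covered. That at 4872154 to 4884866 (12713 bp) was 2 clusters in replicate 1 and 1 of 12658 bp in replicate 2. That at 10106872 to 10119074 (12203 bp) scored lowest of the 4, at 0.621 in the combined set, and was covered to 73.7% by 3 clusters and to 83.9% by 2.

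On X, all 4 of the widest lay outside the proximal 2 Mb. That at 8782160 to 8796580 (14421 bp) was 1 cluster in each library, of 13801 and 14531 bp, and was covered to 95.7% and 100%. That at 4823236 to 4835184 (11949 bp) was 2 clusters in replicate 1 and 1 in replicate 2, with 88.0% and 99.8% covered. Those at 17184014 to 17197492 (13479 bp) and 12794122 to 12805118 (10997 bp) were in pieces in both libraries and covered to 86.1% and 69.8% by replicate 1 and to 93.8% and 95.5% by replicate 2. Over both libraries together, 4 regions had 6 or more clusters, of which 3 are given above on 2L and 3R and the other was at 9041826 to 9051670 on X (9845 bp, 3 clusters in each library). In that region on X, the replicate 2 cluster with the most overlap was 11153 bp wide but covered only 34.9% of it, so it ran past the region's edge. A further 12 regions tied at 5, and the first of these by arm and start was at 11987014 to 11993886 on 2L (6873 bp, 3 and 2 clusters).

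The highest-scoring broad cluster of each arm measured from 4019 to 7367 bp. On X it was at 19412928 to 19418710 (5783 bp), with a score of 3.19 in the combined set, and 1 cluster of each library covered 95.6% and 82.5%. On 2R, the one at 11014252 to 11018270 (score 3.11) measured 4019 bp, just inside the threshold, and its replicate clusters were 3495 and 3792 bp wide. On 3L, at 4623164 to 4630530 (score 3.03), 7367 bp were covered to 76.9% and 85.5% by 1 cluster in each library. On 3R, at 12059566 to 12063952 (score 2.68), 4387 bp were covered to 95.5% and 99.6%, also by 1 cluster in each. On 2L, at 21793822 to 21798798 (score 2.38), 4977 bp in the proximal 2 Mb were covered to 86.8% by 2 clusters of replicate 1 and to 100.0% by 1 of replicate 2.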

How the data were processed

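HP1b ChIP-seq clusters of 2 ChIP libraries from wild-type Oregon-R third-instar larvae were analysed, with the authors' combined set. The libraries were grouped by their titles. The submitters' processing notes name Bowtie 0.12.7 as a tool. How clusters were called is not given in the sources used here. Positions follow FlyBase release 5, per the file headers. Each deposited row holds a start, an end and 1 score assigned by the authors, taken here as log2. What it divides by what is not stated. Its base was inferred from the values: of 7140 differences between scores tied in 3 or more combined clusters, 437 equalled (within 1e-06) the base 2 logarithm of a ratio of whole numbers up to 20, against 2 for natural and 11 for base 10 logarithms. It was used within a list only. Input libraries had no file analysed here. The files hold no reads, and their depth is unknown.

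Combined clusters of 4000 bp or more on 2L, 2R, 3L, 3R and X were selected, and the depletion rows (2 in the combined set, 1 in replicate 2) were dropped. A replicate cluster touched a region if they shared 1 bp. A region belonged where its midpoint lay. Calculations used Python 3.11.15 with NumPy 2.4.6 and SciPy 1.17.1, and the interval functions were tested on simulated data. No test was run, because width chose the regions, the combined set was made from the replicates, and with 2 libraries the smallest p of an exact two-sided sign test is 0.5. Alternatives changed the width threshold, merging, overlap, neighbour distance, proximal length and replicates. Regions named are the 4 widest and the highest-scoring of each arm, the 5 with the most replicate clusters (ties by arm and start) and the 3 longest chains. The rule also asked for the widest touched by neither replicate, and there were 0. The regions and comparisons were chosen with earlier results of these data known. Of genes, the table at hand is of another release, so no gene or sequence was assigned to a region.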

Additional observations from a re-analysis of the deposited data

How the results depend on the processing

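Of the 50 alternatives tried, 26 stayed within tolerance (1.5 times for a count, 1 SD between replicates for a mean or ratio, the 95% Wilson interval for a share of regions) and 24 moved. None brought the X or proximal density ratio below 1, while counts, shares and means taken alone have no direction to reverse. Replicate 2 without 2R, with a proximal ratio of 0.854, was not among the 50. The tolerance of the proximal ratio was wide, at an SD of 0.689. With thresholds of 3, 5 and 6 kb there were 1694, 424 and 223 regions, with clusters under 1000 bp apart merged 1352, and in replicate 1 alone 365. The density on X relative to the autosomal arms was 1.48 at 3 kb, 1.80 at 5 kb, 1.76 and 1.83 in the own lists of replicates 1 and 2, and 1.96 without the proximal 2 Mb. The proximal ratio was 3.66 at 6 kb and 1.13 in the list of replicate 2, and without 2R it was 1.27 (narrower clusters 1.21). These alternatives without the proximal 2 Mb and without 2R were chosen after seeing the data. The share touched by both replicates was 93.2%, 98.8% and 98.7% at the 3 thresholds, and 86.4% when each had to cover 50%. A single replicate cluster held at least 50% of the region for 81.9%, and leaving out 1 replicate gave 41.8% to 70.2% at the 80% criterion. Another broad cluster lay within 5, 20 and 50 kb for 21.5%, 44.9% and 66.4% (narrower clusters 13.1%, 34.3% and 57.0%), and within 10 kb for 50.0%, 24.3% and 17.5% at the 3 thresholds and 39.9% after merging. Fewer or more regions by construction bear on these; the cause of the other changes was not tested. With 1 of 2 replicates left out, a value always lies within 1 SD of the mean. No paired analysis was possible because replicate numbers are shared only with Input libraries, whose files were not analysed here. Depth of reads is unknown, and what it limits cannot be given.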
